A study of Rattus norvegicus with 10 samples.

Results

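The 10 genes described here encode proteins that platelets and their parent cells, the megakaryocytes, store in alpha granules, and they were taken by their symbols from a list of such cargo, with no measured value in the rule. Each was found as 1 transcript cluster, the array's unit of measurement, whose single annotated symbol was that gene, so 10 of 10 were measured among 68842 clusters in all. The arrays measured RNA of plasma exosomes, vesicles shed by cells into the blood, in male Wistar rats. The RIC group held 5 rats given remote ischemic conditioning, that is 4 rounds of arrested flow (5 min) and restored flow (5 min) in tissue away from the organ to be protected. The control group was 5 rats labelled healthy. From each animal 10 mL of EDTA blood was taken, and vesicles were separated by differential ultracentrifugation. The labels attach the conditioning text to all 10 animals, and it was taken to hold for RIC rats alone, as titles and condition labels say. For the tissue made ischemic, the rats' age and the interval before blood was drawn, the sources used here give nothing. All values are log2 signal, 1 array per animal.

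Alpha granules are the most abundant secretory granules of platelets. They hold chemokines, adhesive proteins, coagulation factors and matrix proteins, which are released or moved to the platelet surface when the platelet is activated. Much of this cargo is made in megakaryocytes, whose RNA platelets inherit, and some of the genes are also active elsewhere: Vwf and Selp in endothelium, Sparc in endothelium and connective tissue cells, F13a1 in monocytes and macrophages, and F5 in liver. Platelets also shed vesicles of their own into plasma.

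Only 2 of the genes, Ppbp and Thbs1, shared a top value on 5 or more arrays and fell below it on others, and the 250 bases before their start sites are shown because those are the genes whose arrays can be compared near the top of the scale. They come from RefSeq, build GRCr8, at chr14:17587300-17587549 on the minus strand for Ppbp and at chr3:125510000-125510249 on the plus strand for Thbs1, and are printed 5′ to 3′. Capitals mark GATA, the core letters bound by GATA factors, GGAA, the core letters bound by ETS factors, and TATAAA, the TATA box letters, each searched on both strands.
Ppbp: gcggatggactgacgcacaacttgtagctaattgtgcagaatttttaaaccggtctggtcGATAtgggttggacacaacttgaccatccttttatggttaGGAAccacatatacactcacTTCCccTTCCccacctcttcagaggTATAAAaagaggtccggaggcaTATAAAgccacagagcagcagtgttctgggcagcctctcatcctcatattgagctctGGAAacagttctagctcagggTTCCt
Thbs1: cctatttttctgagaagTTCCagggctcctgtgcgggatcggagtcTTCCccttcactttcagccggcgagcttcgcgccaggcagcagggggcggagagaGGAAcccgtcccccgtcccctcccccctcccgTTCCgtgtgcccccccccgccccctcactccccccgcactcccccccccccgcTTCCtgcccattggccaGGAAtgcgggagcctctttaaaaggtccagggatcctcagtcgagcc

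The Ppbp window held 1 GATA, 5 GGAA and 2 TATAAA matches, and the Thbs1 window 6 GGAA matches and none of the other motifs. No match overlapped another motif's match. Of 33469 promoters of the same length, 55.9% held GATA, 93.2% held GGAA and 12.9% held TATAAA. RefSeq's promoter table matched 7 of the 10 genes, of which 3 held GATA, 7 held GGAA and 1, Ppbp, held TATAAA. A match in these letters is a description and not a shown binding site.

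Of the 10 genes, 4 were pinned at the highest value of the array, and the means of the 5 that varied lay above background. Background was taken from 1446 clusters of olfactory and vomeronasal receptor genes, whose means had a 95th percentile of 4.38. Of clusters with a single symbol, 42.3% exceeded it. The highest value in the table, 19.93, stood on all 10 arrays for 1211 clusters, 1.76% of all clusters. Of the 23446 clusters with a single symbol, 86 were at that value on all arrays, or 0.367%. Pf4, Mmrn1, F5 and F13a1 were among these 86. A cluster with 1 value on all arrays cannot show a difference between groups.

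Pf4 (cluster TC1400001508.rn.1) encodes platelet factor 4, a chemokine that binds heparin, and measured 19.93 in each RIC sample and in each control sample. In RefSeq its neighbour is Ppbp, and on the array the numbers of the 2 clusters follow each other. Mmrn1 (TC0400001034.rn.1) encodes multimerin 1, the carrier protein of factor V in alpha granules. F5 (TC1300000652.rn.1) encodes factor V, the cofactor of factor Xa in thrombin formation, and F13a1 (TC1700000458.rn.1) the transglutaminase subunit of factor XIII, which cross-links fibrin. These 3 also measured 19.93 in all 5 RIC and all 5 control samples. The carrier and its ligand were thus both at the limit of the scale, where neither their order nor a change can be read.

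Srgn was constant in another way. It encodes serglycin, the proteoglycan core protein to which Pf4 and other basic cargo bind inside the granule. Its cluster (TC2000001563.rn.1) measured 5.58 on all 5 RIC and all 5 control arrays, well below the ceiling and identical to 2 decimals. A single value below the ceiling on all arrays was found for 226 clusters in the table, and how they arose was not tested. No level or difference of Srgn is drawn from it.

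**Figure D1:**
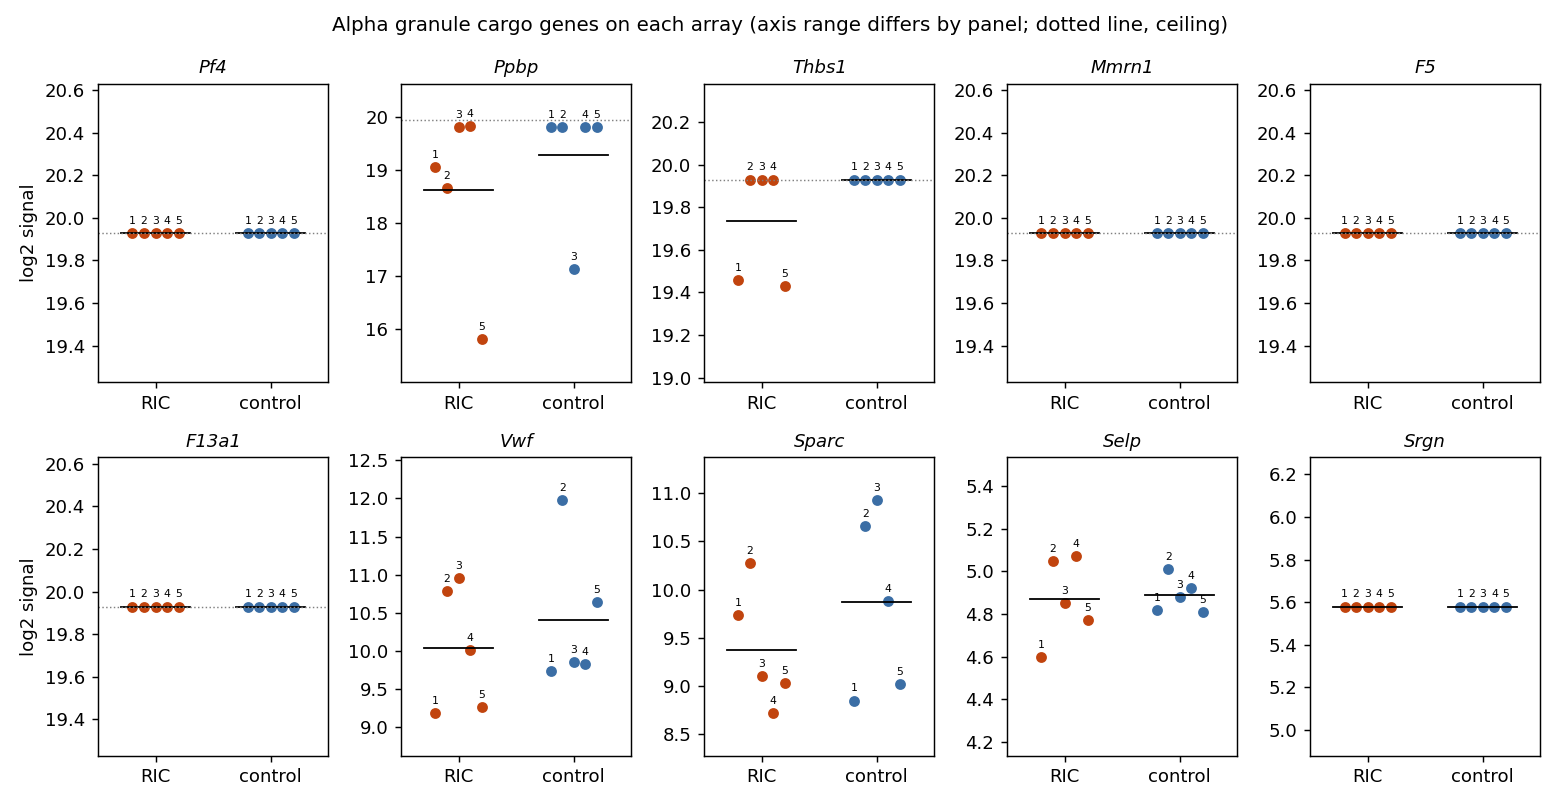
Log2 signal (vertical axis, range differs by panel) of the 10 alpha granule cargo genes in RIC samples (left, red) and control samples (right, blue). Points are single arrays numbered by replicate, the horizontal line is the group mean, and the dotted line is the ceiling of 19.93. Pf4, Mmrn1, F5 and F13a1 lie on the ceiling on all arrays and Srgn at 5.58 on all arrays, whereas the other 5 genes vary with overlapping groups.

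The comparison of RIC with control asked whether cargo RNA in plasma exosomes differed after conditioning, and it could be made for 5 genes, Ppbp, Thbs1, Vwf, Sparc and Selp. None passed the test. With limma over all 68842 clusters, 0 of these 5 had a Benjamini-Hochberg adjusted p under 0.05 (lowest 0.53, highest 0.963), as did 0% of all clusters, whose lowest was 0.302. With no adjustment 0 of the 5 had a p under 0.05, against 11.1% of all clusters (3.17% with a lower mean in RIC) and 15.2% of the 5811 varying clusters with a mean of 6 to 18. All 5 had a lower mean in RIC, and a lower mean was found for 38.2% of all varying clusters and for 77.9% of those with a mean of 6 to 18. The median difference of the 5 was -0.37, against 0.03 over all varying clusters and -0.22 over those with a mean of 6 to 18. Vwf and Sparc had means in that band, whereas Ppbp and Thbs1 lay above it and Selp below it. The groups overlapped in all 5, and were apart in 1.78% of all varying clusters. In vesicle RNA, fewer platelet vesicles and less cargo RNA per vesicle cannot be told apart.

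Ppbp (TC1400001509.rn.1), which encodes pro-platelet basic protein, the precursor of a chemokine that attracts neutrophils, varied most. It measured 19.05, 18.65, 19.81, 19.82 and 15.81 in RIC samples 1 to 5, against 19.81, 19.81, 17.14, 19.81 and 19.81 in control samples 1 to 5. Exactly 19.81 stood on 5 arrays, which gives this gene a repeated top value of its own just below the ceiling. RIC samples 1, 2 and 5 and control sample 3 lay more than 0.1 below it, so the groups overlapped. The difference was -0.65 (SE 0.85, 95% interval -2.57 to 1.28, limma adjusted p = 0.788). RIC sample 5 alone set its sign, and without it the difference was 0.06. Since arrays of both groups stood at the repeated value, the interval is not read as a bound on the true difference.

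Thbs1 (TC0300001470.rn.1) encodes thrombospondin 1, an adhesive glycoprotein that binds Cd36 and Cd47. It measured 19.46, 19.93, 19.93, 19.93 and 19.43 in RIC samples 1 to 5, against 19.93 in each control sample. RIC samples 1 and 5 were below the ceiling and the other 3 RIC samples and all controls on it. The difference was -0.19 (SE 0.11, limma adjusted p = 0.53, unadjusted p = 0.119). Since both groups held arrays at the ceiling, neither its true size nor a bound can be given. Without RIC sample 5 it was -0.12, and without RIC sample 1 it was -0.13.

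The arrays that left the ceiling for Thbs1 were not those that did so most often. Over the whole table, 123 clusters stood at the ceiling on 5 or more arrays and more than 0.1 below it on at least 1. In 110 of them the drop was in RIC samples alone, in 7 in control samples alone and in 6 in both. RIC sample 3 was below the ceiling in 83 of the 123 and RIC sample 4 in 38, against 7 each in RIC samples 1 and 5, 2 in RIC sample 2 and 1 to 5 in the control samples. Thbs1 was the 1 cluster with a drop in RIC samples 1 and 5 and no other array.

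Some genes of the lists of other cargo, receptors and platelet markers also left a shared value. Angpt1, which encodes the vessel-stabilizing factor angiopoietin 1, measured 16.79, 18.51, 18.51, 18.51 and 16.13 in RIC samples 1 to 5, against 18.51, 18.81, 18.77, 18.51 and 18.51 in control samples. RIC samples 1 and 5 were lowest. In these lists 6 varying genes had a value shared by 5 or more arrays, and 4 of them fell more than 0.1 below it somewhere, 3 in RIC sample 5, 2 in RIC sample 1, 1 in control sample 3 and 0 on the other arrays. Treml1, a receptor of the alpha granule membrane, was 0.29 below its shared value of 17.86 in RIC sample 5, and Plek, the kinase substrate pleckstrin, 0.21 below 19.93 in RIC sample 1. These genes were singled out after their values were seen.

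**Figure D2:**
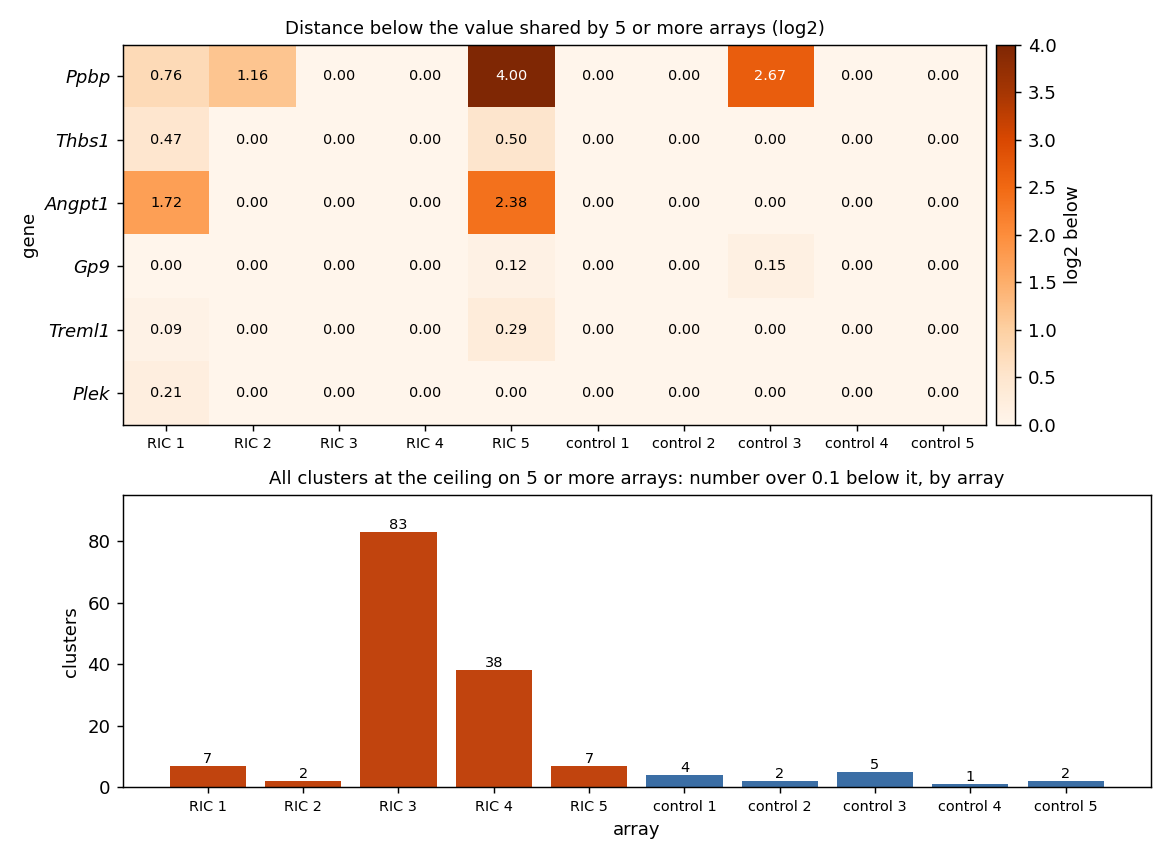
Top, how far each of 6 genes lay below the value it shared on 5 or more arrays (log2, colour and printed number) on each array, with RIC samples to the left of control samples and arrays at or above that value set to 0. Bottom, number of clusters, among 123 in the whole table, more than 0.1 below the ceiling on each array. Ppbp, Thbs1 and Angpt1 fall furthest in RIC sample 5, at 4.0, 0.50 and 2.38, whereas RIC sample 3 has the most clusters below the ceiling, at 83.

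Vwf, Sparc and Selp were never at the ceiling. Vwf (TC0400001801.rn.1) encodes von Willebrand factor, which tethers platelets to injured vessel walls through Gp1ba. It measured 9.18, 10.79, 10.96, 10.01 and 9.26 in RIC samples 1 to 5, against 9.73, 11.98, 9.85, 9.83 and 10.64 in control samples. Control sample 2 was highest and RIC samples 1 and 5 lowest, with the groups overlapping. Means were 10.04 ± 0.83 in RIC and 10.41 ± 0.95 in control (SD, n = 5 each), a difference of -0.37 (SE 0.53, 95% interval -1.56 to 0.83, limma adjusted p = 0.811). Without control sample 2 it was 0.03.

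Sparc (TC1000002829.rn.1) encodes osteonectin, a collagen-binding matrix protein. It measured 9.74, 10.28, 9.10, 8.72 and 9.03 in RIC samples 1 to 5, against 8.85, 10.66, 10.93, 9.88 and 9.02 in control samples. Control samples 3 and 2 were highest and RIC sample 4 lowest, and the groups overlapped. The difference was -0.49 (SE 0.47, 95% interval -1.56 to 0.57, limma adjusted p = 0.699), and it was -0.23 without control sample 3 and -0.30 without control sample 2.

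Selp (TC1300000651.rn.1) encodes P-selectin, which sits in the granule membrane, moves to the surface on activation and binds leukocytes through Selplg. It measured 4.60, 5.05, 4.85, 5.07 and 4.77 in RIC samples 1 to 5, against 4.82, 5.01, 4.88, 4.92 and 4.81 in control samples. RIC sample 1 was lowest, and RIC samples 4 and 2 were above all controls. The mean of Selp over all arrays was 4.88, near the receptor 95th percentile of 4.38. The difference was -0.02 (SE 0.09, 95% interval -0.23 to 0.19, limma adjusted p = 0.963). Selp and F5 are neighbours in RefSeq and their clusters carry consecutive numbers.

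How Vwf, Sparc and Selp varied from array to array was set against marker genes of the cell types that could supply them, in 18 relations over the 10 arrays with permutation tests. This comparison was added after values had been seen. Vwf followed platelet markers, whose mean over 9 varying genes above background was used (Pearson r = 0.817, permutation p = 0.0041, adjusted over the 18 relations 0.0246, Spearman rho = 0.782, permutation p = 0.0105, adjusted 0.0943). With each group's mean removed r was 0.818, and without the 2 arrays farthest from the median, RIC samples 5 and 1, it was 0.79. Of the 9 platelet markers, Itgb3, Gp9, Treml1, P2ry12 and Plek each shared 1 value on 8 or 9 arrays. Their mean therefore moved mainly with the other markers. Gp5 varied most, from 16.05 in RIC sample 5 to 19.23 in control sample 2. Against endothelial markers (9 genes) Vwf gave r = 0.458 (permutation p = 0.187, adjusted 0.337) and rho = 0.236 (permutation p = 0.514, adjusted 0.662), and r was -0.01 without control samples 2 and 3. Against all clusters with a mean of 6 to 18 it gave r = 0.559 (permutation p = 0.0964, adjusted 0.283) and rho = 0.236 (permutation p = 0.515, adjusted 0.662), and r was -0.34 without control sample 2 and RIC sample 5.

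Sparc followed another set. Against stromal markers, 8 genes of connective tissue cells with collagens and decorin among them, it gave r = 0.912 (permutation p = 0.00019, adjusted 0.00342) and rho = 0.988 (permutation p = 1e-05, the smallest the draws can give, adjusted 0.00018). Pearson r was 0.904 with group means removed and 0.903 without RIC sample 4 and control sample 3. Decorin (Dcn) varied most among the 8 genes, from 8.94 in RIC sample 4 to 16.27 in control sample 3. It therefore weighed most in their mean. Endothelial markers gave r = 0.861 (permutation p = 0.00157, adjusted 0.0141) and rho = 0.709 (permutation p = 0.0265, adjusted 0.159), with r = 0.694 without control samples 2 and 3. With platelet markers Sparc had r = 0.0847 (permutation p = 0.816, adjusted 0.864) and rho = -0.139 (permutation p = 0.707, adjusted 0.749), and r was -0.19 without RIC samples 5 and 1. Selp gave no relation with an adjusted p under 0.05 (lowest 0.203 for r). Whether these correlations differ from one another was not tested.

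**Figure D3:**
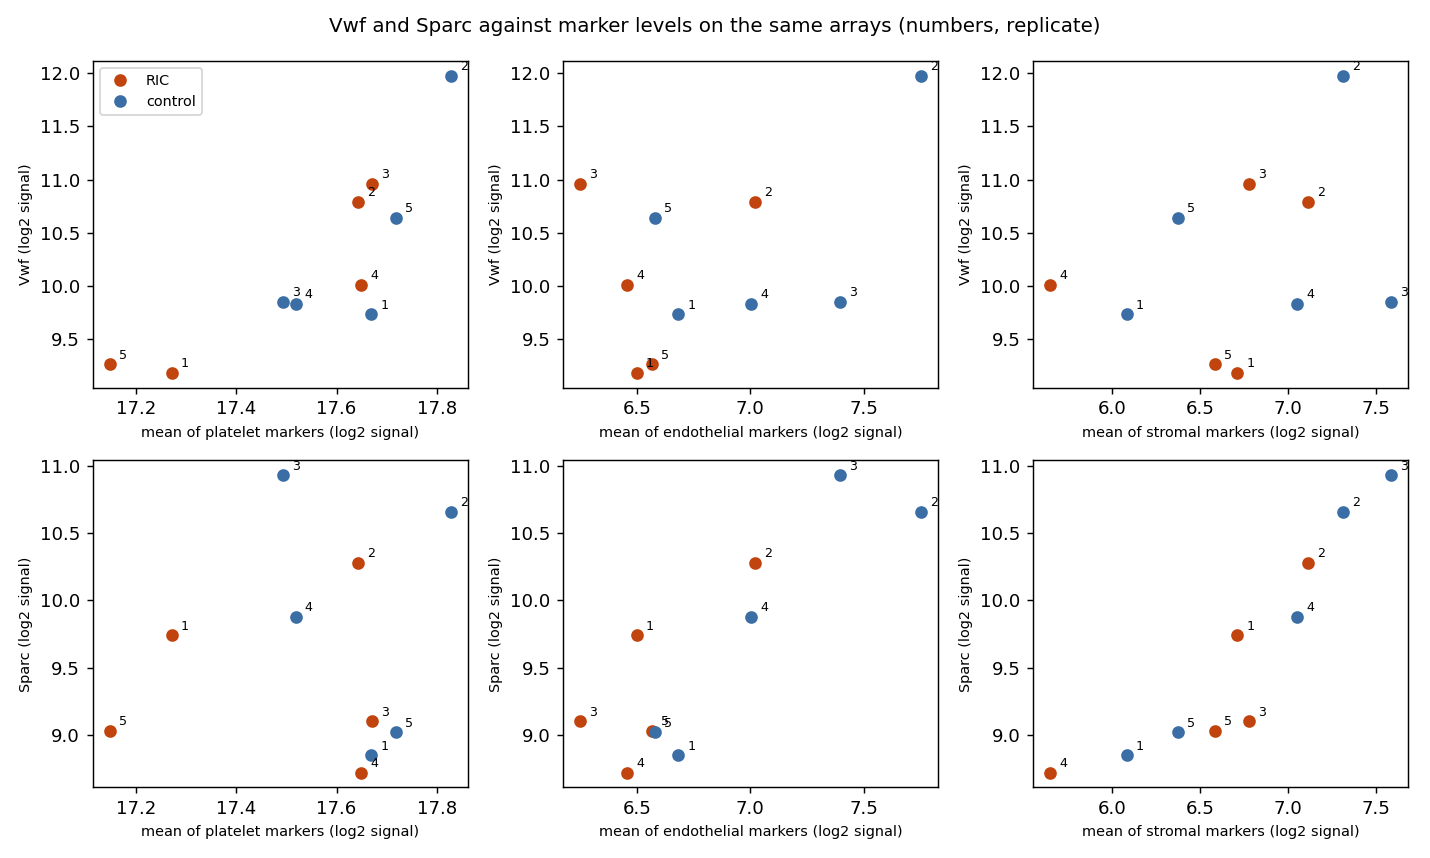
Log2 signal of Vwf (top) and Sparc (bottom) against the mean log2 signal of platelet, endothelial and stromal markers on the same array, with RIC samples in red, control samples in blue and replicate numbers beside the points. Vwf is lowest in RIC samples 1 and 5, where platelet markers are lowest too, and Sparc is lowest where stromal markers are lowest, in RIC sample 4, and highest where they are highest, in control sample 3.

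Mean levels of each marker list overlapped between the groups. All 12 platelet markers measured lay above the receptor 95th percentile, 3 of them at the ceiling on all arrays, and the mean of the 9 varying ones was 17.15 to 17.67 in RIC and 17.49 to 17.83 in control. Of these 9, 8 had a lower and 1 a higher mean in RIC. Of 11 endothelial markers 9 were above the receptor 95th percentile, with Sele and Robo4 below, and their mean ran from 6.25 to 7.02 in RIC and from 6.58 to 7.75 in control. Of the 11, 8 had a lower mean in RIC and 2 of these an unadjusted p under 0.05. A lower mean was found for 38.2% of all varying clusters and for 77.9% of those with a mean of 6 to 18. With limma 11.1% of all clusters had an unadjusted p under 0.05, and 3.17% had it with a lower mean in RIC. The groups were apart in 1.78% of all varying clusters. The adhesion molecule Esam measured 4.49, 4.69, 4.77, 4.39 and 4.61 in RIC samples 1 to 5, against 5.37, 5.58, 5.22, 5.23 and 4.84 in control samples, without overlap, a difference of -0.66 (SE 0.13, limma unadjusted p = 0.000693, adjusted p = 0.313). Its RIC mean of 4.59 lay near the receptor 95th percentile of 4.38. Pecam1, which encodes the endothelial and platelet adhesion molecule CD31, ran from 9.92 to 10.73 in RIC and from 10.73 to 12.84 in control, a difference of -1.10 (SE 0.40, limma unadjusted p = 0.023, adjusted p = 0.408). Esam and Pecam1 were named after their values were seen. For stromal markers 8 of 8 were above the receptor 95th percentile, at 5.65 to 7.12 in RIC and 6.08 to 7.59 in control. Monocyte markers, relevant to F13a1, were above it in 8 of 9 cases, at 5.49 to 6.08 in RIC and 5.79 to 6.38 in control, with Adgre1 below. Erythroid markers were above it in 8 of 8 cases, and the 6 that varied had means of 8.19 to 10.23 in RIC and 8.32 to 8.91 in control. The red cell anion exchanger Slc4a1, 1.09 higher in RIC, was the 1 of them with an unadjusted p under 0.05 (0.0386, limma adjusted p = 0.431). Of 9 liver markers, relevant to F5, 2 were above the receptor 95th percentile. Among the 9, 7 had a higher and 2 a lower mean in RIC, and 1, Fetub, which lay below that percentile, had an unadjusted p under 0.05. The median difference of the 9 was 0.084, and the receptor median itself was 0.085 higher in RIC. The median of clusters with a mean of 6 to 18 was 7.46 to 7.84 in RIC and 7.74 to 8.33 in control. It was lowest in RIC sample 5 (7.46), followed by RIC samples 1 (7.61) and 3 (7.62), and highest in control sample 2 (8.33). Low values in RIC samples 5 and 1 and high values in control sample 2 were thus not particular to the cargo. The part of any of these in the cargo differences was not tested.

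Set against each array's own background, the cargo stood 5.17 to 6.91 above the receptor median in RIC samples and 5.76 to 8.09 above it in control samples, taken as the median of the 5 varying genes, which on each array was the higher of Vwf and Sparc. The mean distance was 6.11 ± 0.72 in RIC and 6.68 ± 0.94 in control (SD, n = 5 each). The ranges overlapped, with control sample 2 highest and RIC sample 5 lowest. The receptor median that was subtracted did not overlap between the groups, at 4.01 to 4.09 in RIC and 3.89 to 3.99 in control, and this gap of 0.085 is part of the difference in distance of -0.57.

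Other cargo of the same granules gave no call either. Of 25 listed genes 24 were measured and 14 exceeded background, 23 varied, and among these 14 had a lower and 8 a higher mean in RIC, with a median difference of -0.04. Of the 13 that varied and exceeded background 11 had a lower mean. The share with a lower mean was 38.2% over all varying clusters. It was 77.9% over those with a mean of 6 to 18, a band that holds only some of the 13. With limma 0 passed after adjustment and 2 had an unadjusted p under 0.05, where the share over all clusters was 11.1%. Igf1, a growth factor, measured 6.27 ± 0.37 in RIC and 7.31 ± 0.97 in control, a difference of -1.04 (limma adjusted p = 0.435). Hrg, the plasma protein histidine-rich glycoprotein, measured 4.04 ± 0.08 in RIC and 3.90 ± 0.11 in control and lay below the receptor 95th percentile. Angpt1 differed by -0.93 (limma adjusted p = 0.494). Clu, the chaperone clusterin, measured 17.13 on all arrays of both groups, a single value below the ceiling like that of Srgn. It is counted among the 14, but no level or difference of Clu is drawn from it.

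Genes for the making and release of alpha granules had 13 of 15 members above background. With limma 0 of the 15 passed after adjustment, 10 had a lower and 5 a higher mean in RIC, the median difference was -0.10, and 4 had an unadjusted p under 0.05. A lower mean was found for 38.2% of all varying clusters, and an unadjusted p under 0.05 for 11.1% of all clusters. Over varying clusters with a mean of 6 to 18, a band that holds only some of the 15, the shares were 77.9% and 15.2%. Rab27b, a GTPase of granule secretion, measured 13.40, 14.56, 14.56, 13.87 and 12.59 in RIC samples 1 to 5, against 14.69, 15.79, 15.00, 14.25 and 15.15 in control samples, a difference of -1.18 (SE 0.42, limma adjusted p = 0.402). RIC samples 5 and 1 were lowest here too. The SNARE proteins of granule fusion Snap23 and Vamp3 differed by -0.66 (adjusted p = 0.435) and -0.44 (adjusted p = 0.447), and Fli1, an ETS factor of megakaryocytes, by 0.22 (adjusted p = 0.445).

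Receptors and binding partners of the cargo were measured for 12 of 14 genes, 10 of them above background. With limma 0 passed at an adjusted or an unadjusted p under 0.05, where 11.1% of all clusters had an unadjusted p under 0.05. A lower mean in RIC was found for 10 and a higher mean for 2, and the median difference was -0.21. The share with a lower mean was 38.2% over all varying clusters. It was 77.9% over those with a mean of 6 to 18, a band that holds only some of the 12. Gp9 and Itgb3, subunits of the von Willebrand and fibrinogen receptors, had a mean of 19.91 ± 0.05 and 18.29 ± 0.04 in RIC and 19.90 ± 0.07 and 18.31 ± 0.00 in control, and both shared 1 value on 8 or more arrays. Gp5, which joins Gp9 in the von Willebrand receptor, measured 17.54 ± 1.03 in RIC and 18.21 ± 0.86 in control (limma adjusted p = 0.656). Cd36, a receptor of thrombospondin 1, measured 9.33 ± 0.57 in RIC and 9.97 ± 0.60 in control (limma adjusted p = 0.504).

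**Figure D4:**
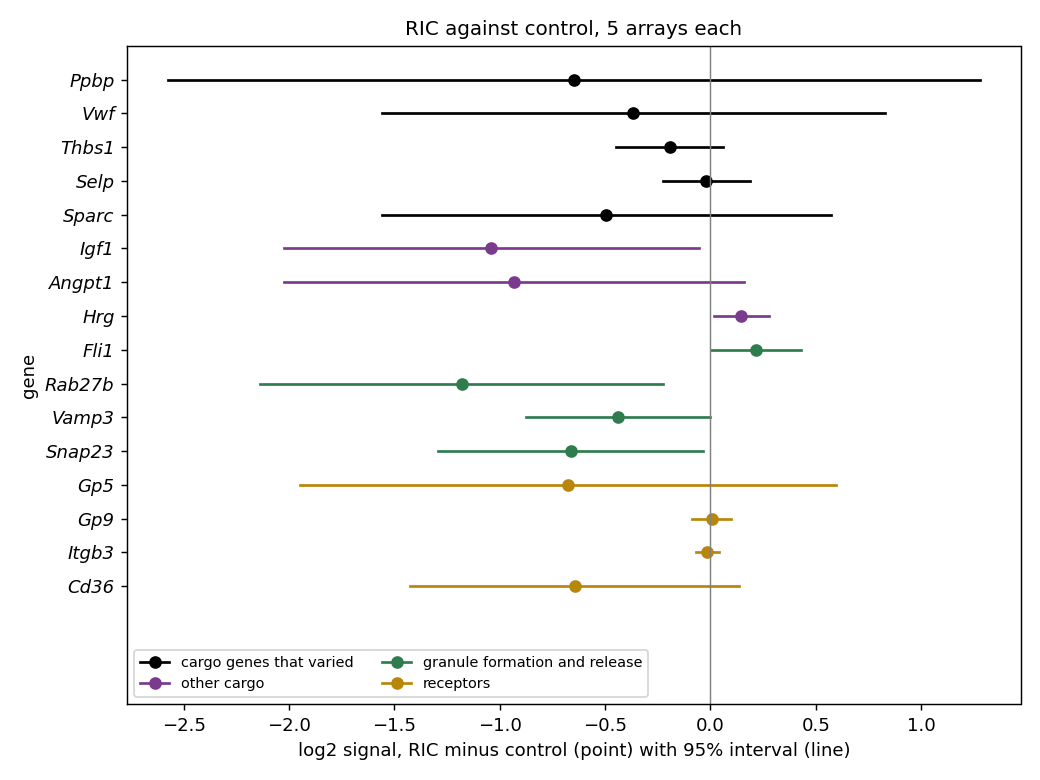
Log2 difference, RIC minus control (horizontal axis), for the 5 cargo genes that varied and for named genes of 3 related lists, with points for the estimate and lines for limma's 95% interval, 5 arrays per group. The intervals of all 5 cargo genes include 0, and those of Igf1, Rab27b, Vamp3 and Snap23 lie below 0 and those of Hrg and Fli1 above it, without adjustment for the number of clusters tested. For Thbs1, with arrays of both groups at the ceiling, the interval gives no bound on the true difference. The interval of Ppbp, with arrays of both groups at its repeated top value, is not read as a bound either.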

How the data were processed

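The authors deposited log2 values per transcript cluster in 1 table with a column per animal, and the submitters' processing notes name Expression Console. The version, summarisation, normalization and genome build of the clusters were not given in the sources used here. Values ran from 2.71 to 19.93. Symbols came from the platform annotation, in which 23446 clusters had 1 symbol, 505 several and 44891 none. No member of the cargo list had a second cluster.

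RIC was compared with control in R 4.3.3 with limma 3.58.1 (lmFit, eBayes), without further normalization or filter, with Benjamini-Hochberg adjustment over all 68842 clusters and a threshold of 0.05. The step was tested on simulated data. The p-values rest on the spread between 10 rats, and this number limits the precision. Correlations used 100000 permutations, two-sided. Genes and lists were chosen with earlier results of these data known. All 10 cargo genes were named. Of each related list, genes with an unadjusted p under 0.05, the 2 brightest and the 2 with the largest difference above background were named. Alternatives covered scaling, variance model, filters, the replicate number as a block and leaving arrays out.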

Additional observations from a re-analysis of the deposited data

Results flagged for a closer look

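In groups of 5, a single sample stood far from the other 4 in 5 of 30 groups tested over 22 genes, where chance flags about 1 in 20. Ppbp in control sample 3 was 17.14, against 19.81 in the nearest other control. Gp9 was 19.81 in RIC sample 5 and 19.78 in control sample 3, with all others at 19.93, and Itgb3 was 18.23 in RIC sample 1, against 18.31. In these 4 groups the other arrays shared 1 value, so any single lower array stands apart by construction. Vamp3 in RIC sample 2 was 5.58, with the next RIC sample at 5.11.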

How the results depend on the processing

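The 20 alternatives with a fit left 0 clusters and 0 of the 5 varying cargo genes past the adjusted threshold. Clusters at an unadjusted p under 0.05 numbered 7665, 4750 without control samples 1 and 2, and 2393 among clusters above the receptor 95th percentile, where fewer were tested. Centring on the receptors gave 1 cargo gene at an unadjusted p under 0.05, Thbs1 (-0.28, unadjusted p = 0.0388, limma adjusted p = 0.39), where centring by construction moves values at the ceiling apart. The median difference of the cargo genes was -0.45 to -0.19 over other settings and -0.55 to -0.12 with 1 array left out, lowest in size without RIC sample 5. The distance from receptors, -0.57, was -0.79 to -0.21 with 1 array left out, smallest without control sample 2. With 1 array left out, 3 to 5 genes were lower in RIC, with 3 without control sample 2 and 3 without RIC sample 5. Single genes ranged from -1.18 to 0.0565 for Ppbp (positive without RIC sample 5), from -0.60 to 0.0275 for Vwf (positive without control sample 2) and from -0.0705 to 0.047 for Selp, whose sign turned without RIC sample 1 (0.047), RIC sample 5 (0.0045) and control sample 2 (0.0105); Thbs1 and Sparc stayed negative. Vwf was -0.05 after quantile normalization of the deposited values. Same-numbered samples did not deviate together (correlations -0.106 to 0.174, 1 of 5 RIC samples nearest its own number), and with the replicate block there were 7599 clusters at an unadjusted p under 0.05. Averaging clusters of a gene was not run, since each gene had 1. The ceiling hides any change in Pf4, Mmrn1, F5 and F13a1.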
